A study of Mus musculus with 8 samples.

Results

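The nuclear genes of the mitochondrial respiratory chain were followed through 8 microarrays of mouse forebrain. The set was proposed with earlier results of these data known. Its members were taken by name: symbols beginning with Ndufa, Ndufb, Ndufc, Ndufs, Ndufv, Uqcr, Cox4, Cox5, Cox6, Cox7, Cox8 or Atp5, and Sdha, Sdhb, Sdhc and Sdhd. Of 18193 genes that had a probe set annotated to them alone, 90 met this rule. By textbook assignment 34 of the 90 encode subunits of complex I, 4 of complex II, 8 of complex III, 18 of complex IV and 17 of complex V. A further 8 (Ndufaf1 to Ndufaf8) encode assembly factors of complex I, and Ndufa4l2 was assigned to no complex. Ndufa4 was counted with complex IV, of which it is a subunit despite its name, and so was Cox7a2l, which links complexes III and IV into supercomplexes. Subunits encoded in mitochondrial DNA and those with other symbols are not in this set.

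The respiratory chain is the set of protein complexes in the inner mitochondrial membrane that turns the oxidation of nutrients into ATP. Complex I takes electrons from NADH and complex II from succinate, coenzyme Q carries them to complex III, cytochrome c carries them on to complex IV, and complex IV passes them to oxygen. Complexes I, III and IV pump protons as they work, and complex V, the ATP synthase, uses the returning protons to make ATP, which neurons spend largely on ion pumping.

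The study profiled the telencephalon of mice mutant for Dlx1 and Dlx2, neighbouring homeobox genes that are needed for the differentiation of neurons born in the ventral forebrain. Per the labels, total RNA was taken from 2 tissues, cortex (Ctx) and basal ganglia (BG), of +/- and -/- animals, and these signs were read as the Dlx1/2 genotype from the series title. There were thus 4 groups (BG +/-, BG -/-, Ctx +/- and Ctx -/-) of n = 2 arrays each, numbered replicates 2 and 3 throughout, and the control animals were +/-, not wild type. The labels read here state no age, strain, allele, sex or number of animals per sample. Nothing states that the replicates came from separate animals, so p-values measure only the spread between these arrays, and the number of arrays limits the precision.

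The labels were first checked against the genes they imply. Dlx1 gave signals of 1232 and 1237 in BG +/- and of 3.67 and 15.5 in BG -/-, 138 and 137 in Ctx +/- and 2.42 and 1.74 in Ctx -/-. Every -/- array was thus far below every +/- array of its region, and Dlx2 had the same order. A source label that names blood and adrenal medulla conflicts with the tissues given. Neurod6, a gene of cortical excitatory neurons, reached 4119 to 4976 in the Ctx arrays against 493 to 844 in the BG arrays, while the adrenal enzyme genes Th, Dbh and Pnmt reached at most 52.2, 96.8 and 97.2 in any array. Chga, which neurons also express, was at 162 to 261, and the adrenal list summed to 314 to 453 over the arrays. Several other features moved with the groups. The summed signal of 5 red blood cell genes was 6056 to 6349 in BG +/-, 3156 to 3303 in BG -/-, 2055 to 2289 in Ctx +/- and 1456 to 1662 in Ctx -/-. The summed signal of 7 choroid plexus genes was 12135 to 13999 in Ctx +/- and at most 230 in any other array. The control probe set for the 3' end of dap averaged 1443, 887, 630 and 267 in the same 4 groups. Xist, expressed from the inactive X chromosome of females, was at 34.2 to 67.5 in the +/- arrays and at 2340 to 2519 in the -/- arrays, and the Y-linked gene Eif2s3y ran the other way, from 241 to 448 against 1.2 to 6.46. Sex and genotype therefore cannot be told apart here. In whole tissue, fewer cells of a type and less RNA per cell cannot be told apart either.

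Among the 90 genes, 71 had a mean signal above 500 and 12 a mean below 150. The probe sets of 87 genes lay above the lowest 30% of the array by mean level and were tested. Cox7b2, Cox8b and Ndufb4 did not. As a set, the 87 genes had their highest level in BG +/-. Expressed as the mean log2 distance of each gene from its own average over the 8 arrays, the set stood at 0.32 in each BG +/- array, at -0.01 and -0.03 in BG -/-, at -0.17 and -0.08 in Ctx +/-, and at -0.23 and -0.12 in Ctx -/-. The SD within groups was 0.0472. The BG +/- arrays were apart from the other 6, the BG -/- arrays lay between them and the cortex, and the 2 cortex groups overlapped. Gene by gene, both BG +/- arrays were above all 6 others for 66 of the 87 genes, against 20.3% of the 13627 genes tested, and below all others for 0 of 87, against 12.2%.

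**Figure D1:**
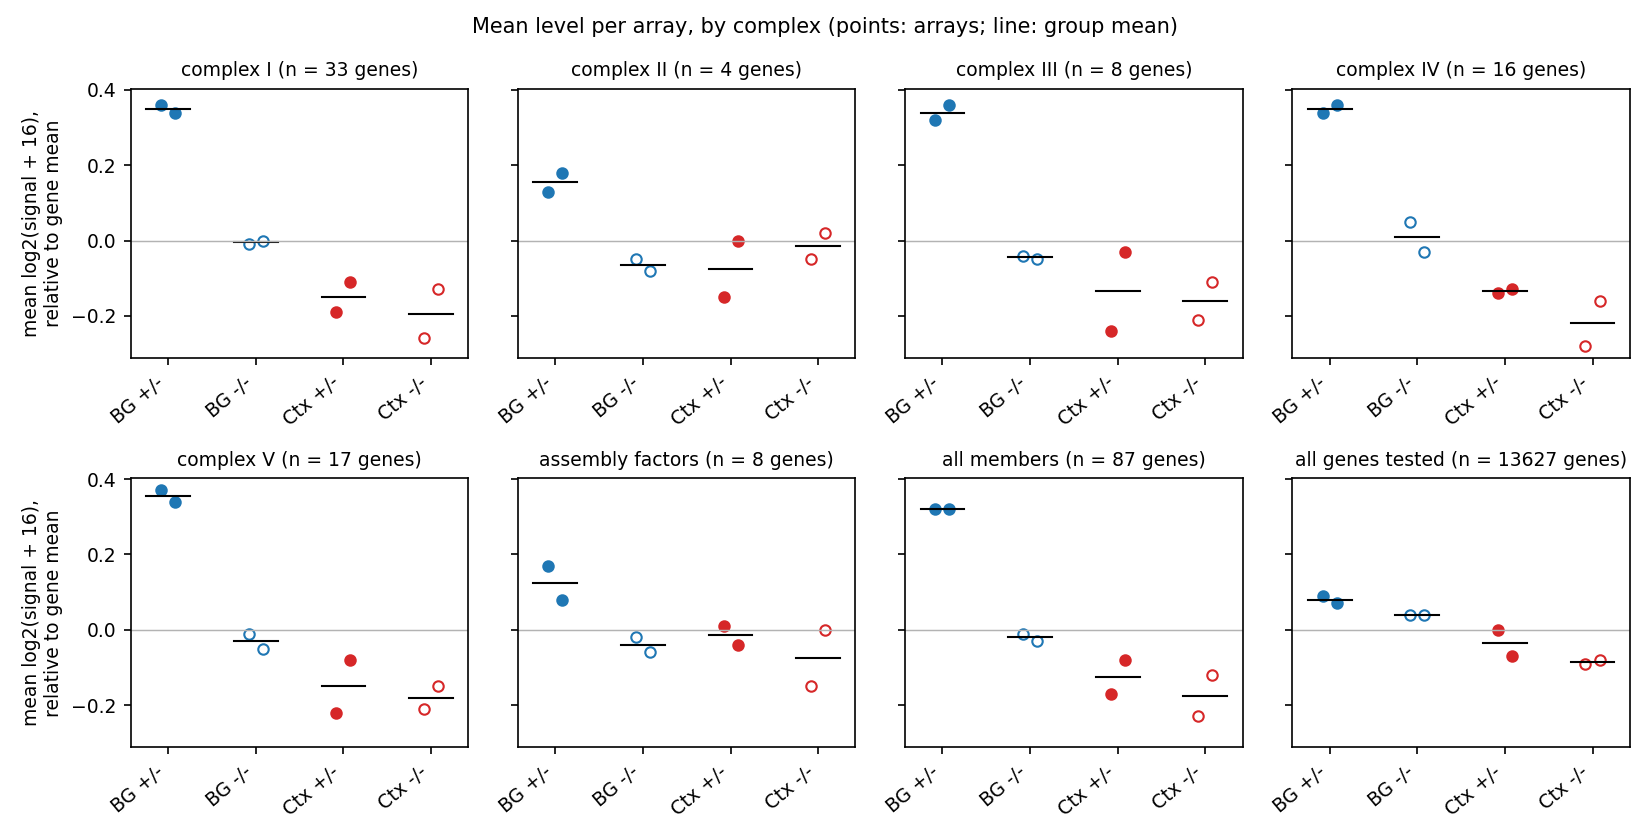
Mean log2(signal + 16) per array for each complex, the assembly factors, all 87 genes and all 13627 genes tested, relative to each gene's mean over the 8 arrays; points are arrays and lines are group means. The 2 BG +/- arrays are the highest in every panel, at 0.32 for the 87 genes and at 0.07 and 0.09 for all genes tested, and the panel of complex II has the smallest distance between BG +/- and BG -/- of the 5 complexes.

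In basal ganglia, loss of both Dlx1/2 copies went with a lower level of respiratory chain genes. Of the 87 genes, 8 fell and 0 rose in BG -/- against BG +/- (limma, Benjamini-Hochberg adjusted p up to 0.05), where 7.82% of all genes tested were called, 3.05% lower and 4.76% higher. The median change of the 87 genes was -0.35 on the log2 scale, 21.7% less, against -0.08 for all genes. Of the 87 changes 82 were below 0, against 7930 of 13627 for all genes. Before adjustment, 55 of the 87 had p under 0.05 (limma), each of them lower in BG -/-, against 3670 of all 13627 genes in either direction. Arrays of the 2 groups did not overlap and lay lower in BG -/- for 76 genes, against 37% of all genes, and higher for 2, against 23.8%. The 8 genes that fell came from 4 complexes: Ndufs8, Ndufa6 and Ndufb10 of complex I, Uqcrh and Uqcrb of complex III, Cox7a2 and Cox7a2l of complex IV, and Atp5g2 of complex V.

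The calls among the 87 genes rested on each BG array. They were lost without any single BG array, where calls over all genes tested fell as well. Fewer genes passed without a Ctx -/- array and more without a Ctx +/- array, among the 87 and among all genes. The median change of the 87 genes ranged from -0.37 to -0.35 without single arrays. A group left with 1 array was assumed to vary like the others. With the spread modelled as a function of the level, 54 genes passed, all lower, against 10.6% of all genes lower, and with only the BG arrays in the fit 1 passed.

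Complex I had the most genes measured, 33, with a median change of -0.35 in BG. Of these 3 fell, where 3.05% of all genes were called lower. Below 0 were 32 of 33 changes, against 7930 of 13627 for all genes. In 31 the BG -/- arrays lay below the BG +/- arrays, against 37% of all genes. Ndufs8 encodes an iron-sulfur subunit on the way to coenzyme Q, and lies on chromosome 19 (RefSeq GRCm38.p6, as are all locations here). Its signal was 2609 and 2838 (BG +/-), 1477 and 1521 (BG -/-), 994 and 1241 (Ctx +/-) and 1055 and 1379 (Ctx -/-). The BG +/- arrays were the highest by far, and the BG -/- arrays stood above the cortex, where the genotypes overlapped. Its fall in BG was -0.85 ± 0.18 (SE; limma adjusted p = 0.0319), 44.7% less. It was the largest of the 8, but the next brightest Ndufs8 probe set gave -0.54 ± 0.17 (adjusted p = 0.102) and none of the 5 other Ndufs8 probe sets passed.

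Ndufa6, an accessory subunit of complex I from chromosome 15, was at 1524 and 1420 (BG +/-), 1019 and 984 (BG -/-), 978 and 1132 (Ctx +/-) and 963 and 1039 (Ctx -/-). The 6 arrays other than BG +/- overlapped. The fall was -0.55 ± 0.13 (limma adjusted p = 0.0452). Ndufb10, an accessory subunit of the membrane arm from chromosome 17, had 1461 and 1360 (BG +/-), 964 and 996 (BG -/-), 981 and 1036 (Ctx +/-) and 904 and 1009 (Ctx -/-). Again only the BG +/- arrays stood apart. The change was -0.52 ± 0.12 (limma adjusted p = 0.0449). The NADH-oxidising module held the exception of complex I: Ndufs1, its largest iron-sulfur subunit, had means of 602 and 653 and a change of 0.12 (adjusted p = 0.616). Ndufv1, which binds NADH, changed by -0.33 (adjusted p = 0.146). The median over the 6 genes of this module was -0.34, over the 4 of the quinone module -0.44, and over the 23 of the membrane arm and accessory group -0.37. Among them 0, 1 and 2 passed.

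All 4 genes of complex II, which also serves the citric acid cycle as succinate dehydrogenase, had lower means in BG -/-, and 0 of 4 passed (1 at an unadjusted p under 0.05, limma). Their median change of -0.17 was the smallest of the 5 complexes. Sdhb, its iron-sulfur subunit, had 2670 and 2929 in BG +/- and 2059 and 2164 in BG -/-, with 1925 and 2161 in Ctx +/- and 2000 and 2143 in Ctx -/-. Its BG +/- arrays stood apart from the other 6, which overlapped, and the change was -0.40 ± 0.13 (adjusted p = 0.0945). The flavoprotein Sdha and the membrane anchors Sdhc and Sdhd changed by -0.17, -0.15 and -0.17, with adjusted p of 0.466, 0.419 and 0.453. Other probe sets give complex II a larger value: with the mean over all probe sets of each gene its median was -0.25.

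Complex III, the cytochrome bc1 complex, had the largest median change in BG, -0.41 over 8 genes, of which 2 fell. Over the small accessory subunits Uqcr10, Uqcr11, Uqcrb, Uqcrq and Uqcrh the median was -0.53, and both genes that fell were among these 5. Uqcrq, at -0.36 (adjusted p = 0.111), was close to the core subunit Uqcrc1, and accessory and core subunits were not tested against each other. The core subunits Uqcrc1 and Uqcrc2 changed by -0.38 (adjusted p = 0.139) and -0.03 (adjusted p = 0.937), and the Rieske iron-sulfur subunit Uqcrfs1 by -0.14 (adjusted p = 0.494). Uqcrh, the hinge protein that sits at cytochrome c1, lies on chromosome 4. Its signal was 5101 and 5185 (BG +/-), 3387 and 3228 (BG -/-), 2696 and 3011 (Ctx +/-) and 3147 and 3371 (Ctx -/-). The BG -/- arrays thus overlapped with the Ctx -/- arrays and not with BG +/-. The fall was -0.63 ± 0.12 (limma adjusted p = 0.0255). Uqcrb, a subunit at the coenzyme Q site from chromosome 13, went from 8003 and 8336 in BG +/- to 5613 and 5549 in BG -/-, with 4778 and 5301 in Ctx +/- and 4605 and 4715 in Ctx -/-. Its arrays were ordered BG +/-, BG -/- and then both cortex groups, without overlap between those 3 levels. The change was -0.55 ± 0.12 (limma adjusted p = 0.0347). The rank of complex III depends on the probe sets and on single arrays. Its median became -0.26, below I, IV and V in size, when probe sets of the plain type, which carry no mark of cross-hybridisation or shared transcripts, stood for the genes that have one. With the mean of all probe sets it was -0.31 against -0.33 for complex I and -0.32 for complex V. Without BG +/- replicate 3 it was -0.37 against -0.40 for complex IV. Without BG -/- replicate 2 it was -0.41 against -0.42 for complex V.

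In complex IV, cytochrome c oxidase, the median change was -0.36 over 16 genes, 2 of which fell. Cox7a2 is the widely expressed form of subunit 7a and lies on chromosome 9. It had signals of 9118 and 9310 (BG +/-), 6604 and 6218 (BG -/-), 4989 and 5849 (Ctx +/-) and 5473 and 5593 (Ctx -/-). The BG -/- arrays lay between BG +/- and the cortex. Its change of -0.52 ± 0.13 had a limma adjusted p of 0.0497, at the edge of the threshold, and another Cox7a2 probe set gave -0.47 ± 0.11 (adjusted p = 0.0458). Cox7a2l, the supercomplex factor on chromosome 17, was at 2340 and 2325 (BG +/-), 1474 and 1514 (BG -/-), 1469 and 1662 (Ctx +/-) and 1277 and 1500 (Ctx -/-). The 6 arrays other than BG +/- again overlapped. It fell by 0.64 ± 0.13 (limma adjusted p = 0.0336), and its 2 other probe sets gave -0.69 ± 0.13 (adjusted p = 0.024) and -0.57 ± 0.14 (adjusted p = 0.0515). Cox4i1 and Cox5a, widely expressed nuclear subunits, changed by -0.43 (adjusted p = 0.0655) and -0.20 (adjusted p = 0.289).

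All 17 genes of complex V were lower in both BG -/- arrays than in both BG +/- arrays, against 37% of all genes. Their median change was -0.35, and 1 fell. Atp5g2 is one of the genes Atp5g1, Atp5g2 and Atp5g3 that encode the same subunit c of the rotor ring with different targeting sequences, and lies on chromosome 15. Its signals were 3304 and 3178 (BG +/-), 2038 and 1963 (BG -/-), 1970 and 2185 (Ctx +/-) and 1961 and 1958 (Ctx -/-). Only the BG +/- arrays were apart. The fall was -0.69 ± 0.12 (limma adjusted p = 0.0186). Another, dim Atp5g2 probe set, at 22.4 to 49.1 over the BG arrays, gave 0.39 ± 0.31 (adjusted p = 0.456), so the mean over the gene's probe sets was -0.09 (adjusted p = 0.734). Atp5g1 had 1345 and 1376 in BG +/- and 929 and 1002 in BG -/-, a change of -0.49 ± 0.13 (adjusted p = 0.0581). Atp5g3 had 6211 and 6200 against 6065 and 5393, a change of -0.12 ± 0.12 (adjusted p = 0.563). The catalytic F1 subunits Atp5a1 and Atp5b changed by -0.35 (adjusted p = 0.145) and -0.47 (adjusted p = 0.0588).

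**Figure D2:**
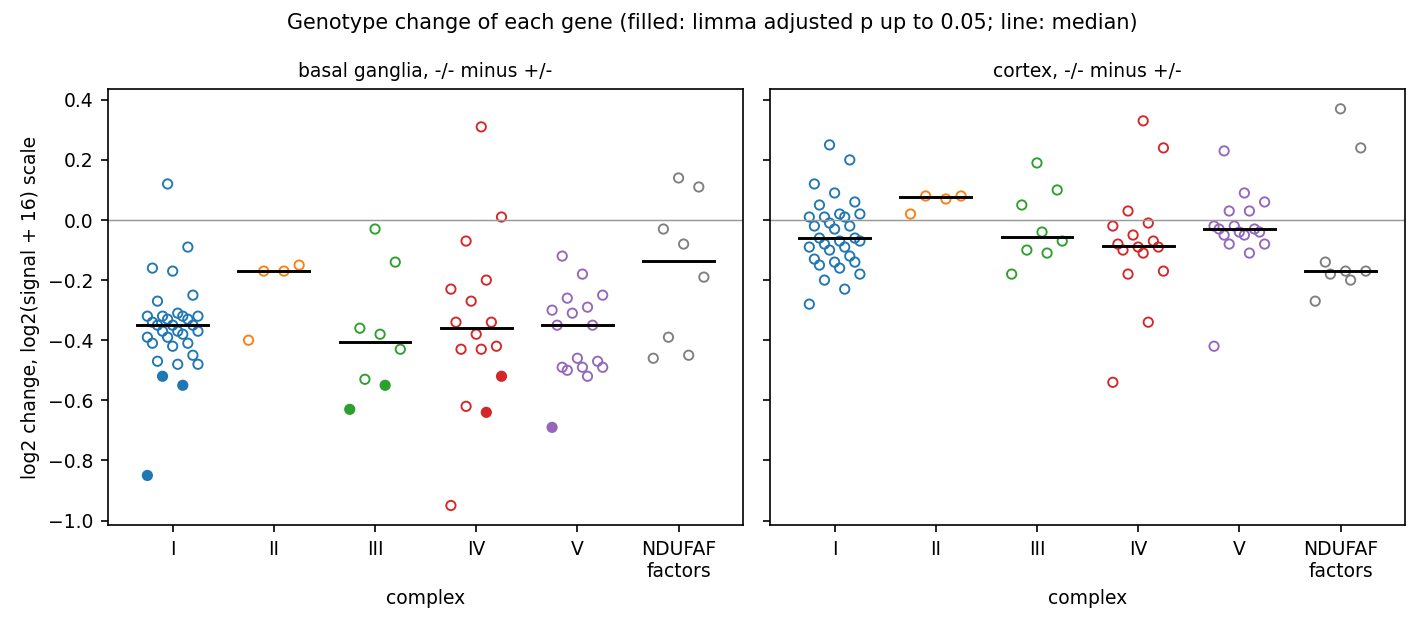
Log2 change of each gene (log2(signal + 16) scale), -/- minus +/-, in basal ganglia and in cortex, by complex; Ndufa4l2 is not shown. Filled points have a limma adjusted p up to 0.05 and lines are medians. In basal ganglia the medians of complexes I, III, IV and V lie from -0.41 to -0.35 and that of complex II at -0.17, and in cortex the medians of the 5 complexes lie from -0.09 to 0.07 with 0 genes filled.

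**Figure D3:**
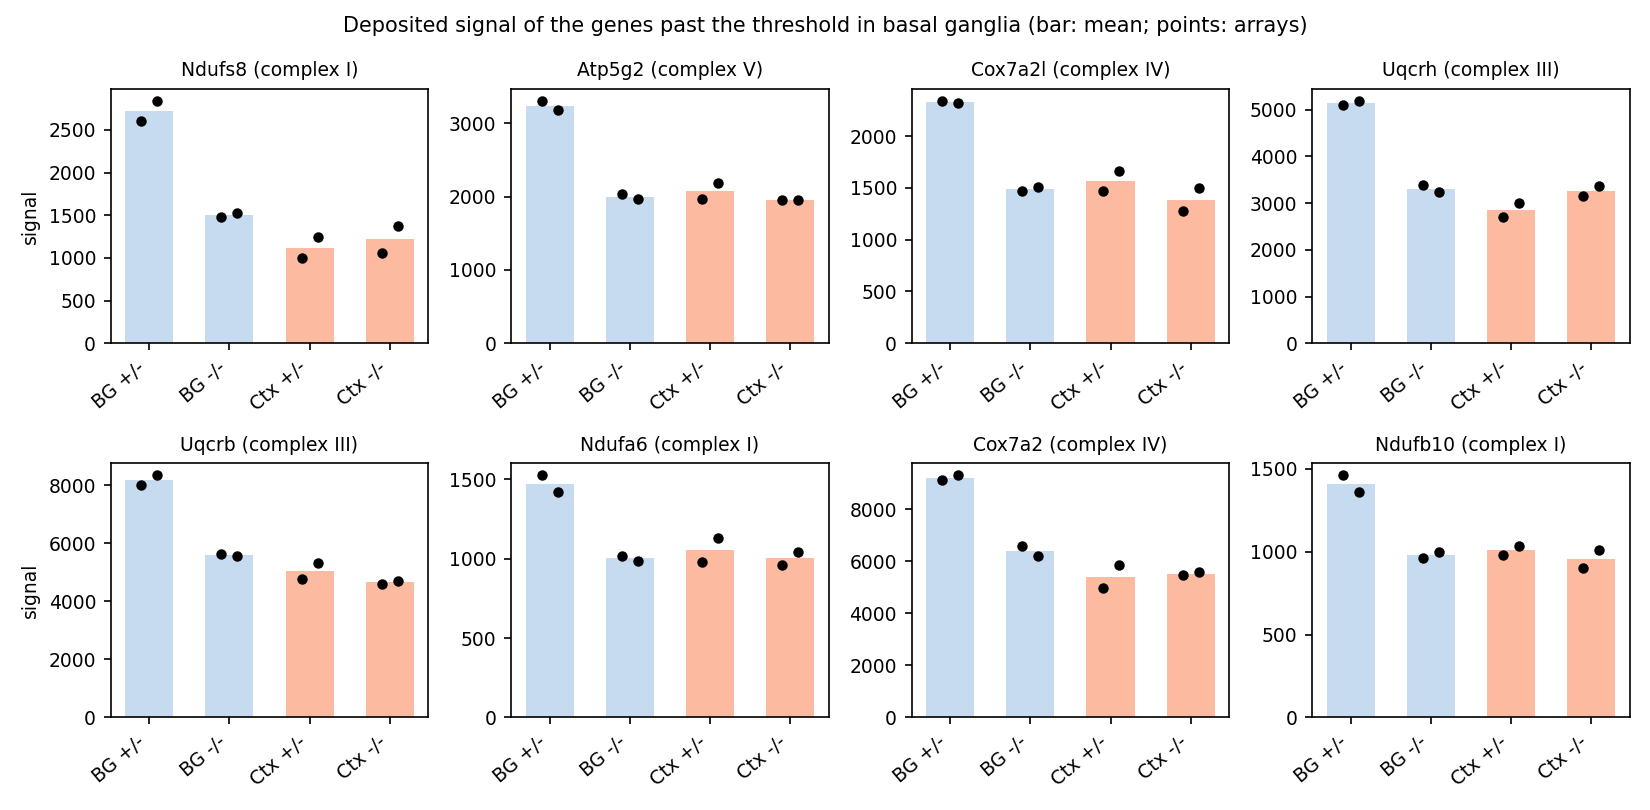
Deposited signal (linear scale from 0) of the 8 genes past the threshold in basal ganglia, in each array (points) with the group mean (bars). In each panel the 2 BG +/- points lie above the other 6 points, for Ndufs8 at 2609 and 2838 against 1521 or less.

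The 8 assembly factors of complex I had a median change of -0.13 in BG, with 6 below 0 and 0 of 8 past the threshold (3 at an unadjusted p under 0.05, limma). Ndufaf2, Ndufaf3 and Ndufaf8 were at -0.46, -0.39 and -0.45, with adjusted p of 0.11, 0.0799 and 0.0941. Ndufaf4 and Ndufaf6 were at 0.14 and 0.11, with adjusted p of 0.677 and 0.721.

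Signal level itself went with the size of the BG change. Of the 87 genes, 67 were in the brightest of 10 equal classes of all genes tested, ordered by mean level. In that class the median change of all genes was -0.18 and that of the 67 respiratory chain genes -0.37, and 6.31% of all its genes were called lower. Dim genes ran in both directions, among them Cox6b2 at -0.95 (adjusted p = 0.0557) and Cox7c at 0.31 (adjusted p = 0.313). The scaling of the arrays bears on the size as well. With each array centred on its median, the median change of all genes moved from -0.08 to -0.18 and that of the 87 genes from -0.35 to -0.45, so the distance between them was -0.28 either way. With quantile normalization the 87 genes were at -0.21 and all genes at -0.11, a distance of -0.10, with 3 genes past the threshold and 79 changes below 0. Of all genes called in BG, 60.9% were higher in BG -/- in the values as deposited, 47.7% after median centring and 54.3% after quantile normalization.

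**Figure D4:**
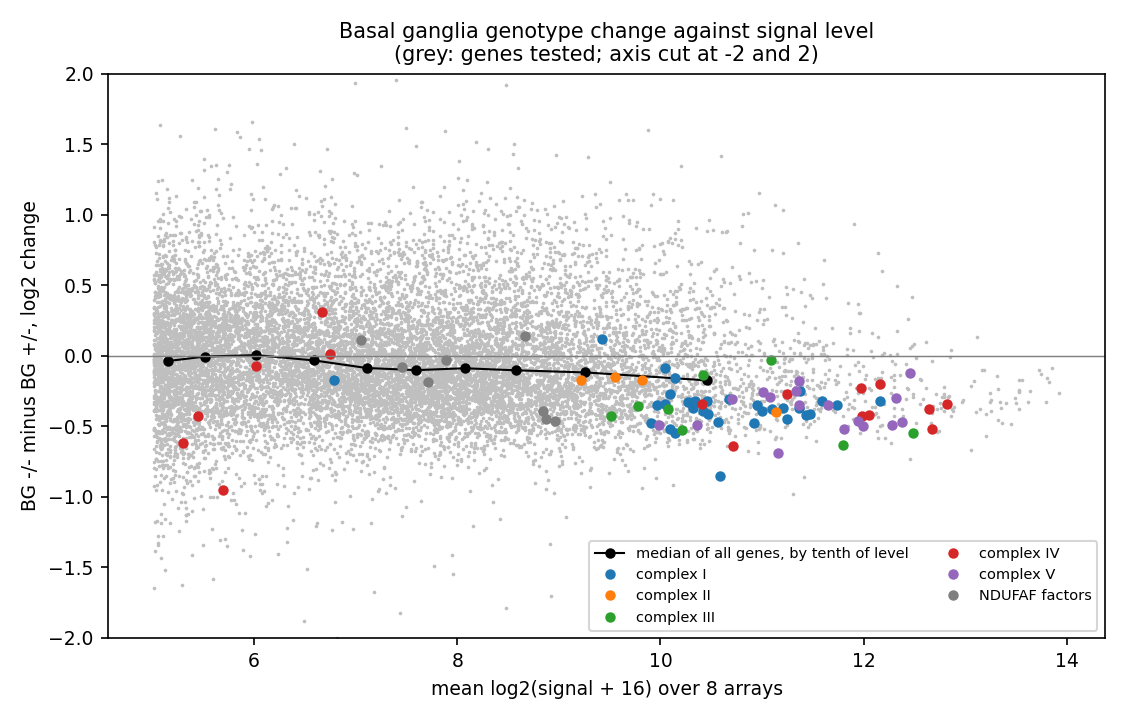
Change in basal ganglia, -/- minus +/-, against mean log2(signal + 16) over the 8 arrays, for all genes tested (grey; 17 genes lie beyond the axis) and the respiratory chain genes by complex; the black line joins the medians of all genes in 10 classes of the level. The line falls to -0.18 in the brightest class, and most respiratory chain genes lie below it, at a median of -0.37 there.

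In cortex, no respiratory chain gene was called between the genotypes. Of the 87, limma called 0 in either direction at an adjusted p up to 0.05. At an unadjusted p under 0.05 there were 0, against 1172 of all 13627 genes tested. Of all genes tested 0.205% were called, 0.183% lower and 0.022% higher. With the spread modelled as a function of the level there were still 0 calls, with 8 genes at an unadjusted p under 0.05. The median change was -0.05 against -0.03 for all genes. The complexes' medians were -0.06 for I, 0.07 for II, -0.05 for III, -0.09 for IV and -0.03 for V. Under median centring those of I, IV and V moved to 0.00, -0.02 and 0.03, so no direction is given. Arrays did not overlap and lay lower in Ctx -/- for 25 of the 87 genes, against 23.4% of all genes, and higher for 9, against 15.9%.

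In cortex, the genes with the smallest unadjusted p of each complex changed by -0.54 to 0.33, and none passed. Ndufa2, on chromosome 18, went from 1954 and 1916 in Ctx +/- to 1647 and 1652 in Ctx -/-, a change of -0.23 ± 0.11 (limma adjusted p = 0.582). Ndufa12, an accessory subunit, went from 1873 and 1974 to 2154 and 2424, a change of 0.25 ± 0.12 (adjusted p = 0.575). The 2 genotypes did not overlap for either, in opposite directions. Uqcrh had 2696 and 3011 against 3147 and 3371, a change of 0.19 ± 0.12 (adjusted p = 0.66), and Uqcrc2 1655 and 2360 against 1652 and 1842, a change of -0.18 ± 0.18 (adjusted p = 0.792). In complex II, Sdhc and Sdha were both at 0.08 (adjusted p = 0.854 and 0.895). The furthest apart in complex IV was the dim Cox6b2, at 55.4 and 39.2 against 22.8 and 32.1, with a change of -0.54 ± 0.24 (adjusted p = 0.546). Cox8c was at 73 and 80.6 against 114 and 87.6, 0.33 ± 0.22 (adjusted p = 0.688). In complex V, Atp5md had 1411 and 1215 against 1044 and 915, a change of -0.42 ± 0.24 (adjusted p = 0.624), and Atp5j2 2350 and 3922 against 3430 and 3689, 0.23 ± 0.23 (adjusted p = 0.792). The Ctx +/- arrays of Atp5j2 differ more from each other than from Ctx -/-.

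The genotype change in BG was set against that in Ctx as an interaction. The median of the differences, BG minus Ctx, was -0.28 over the 87 genes and -0.02 over all genes. Below 0 were 79 of 87, against 7109 of 13627 for all genes. For no single gene did the difference pass: limma called 0 of 87, where 0.338% of all genes were called, 0.066% lower and 0.272% higher. Of the 87, 20 had an unadjusted p under 0.05 (limma), as did 2087 of all 13627 genes tested. With the spread modelled as a function of the level 11 of the 87 passed, all lower, where 2.16% of all genes did. The medians by complex were -0.28 for I, -0.24 for II, -0.43 for III, -0.30 for IV and -0.38 for V. Uqcrh came closest with -0.83 ± 0.17 (adjusted p = 0.0873), then Ndufs8 with -0.97 ± 0.25 (adjusted p = 0.128) and Atp5g2 with -0.61 ± 0.17 (adjusted p = 0.142). A change seen in BG and not in Ctx is thus not shown, gene by gene, to differ between the regions. The red blood cell sum, for comparison, was 6056 to 6349 in BG +/- and 3156 to 3303 in BG -/-, against 2055 to 2289 and 1456 to 1662 in cortex, and its part in the respiratory chain values was not tested.

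The difference between regions was clearest in the +/- animals, where the respiratory chain genes were higher in basal ganglia. Of the 87 genes, 46 were higher in BG +/- than in Ctx +/- and 0 lower (limma adjusted p up to 0.05), where 14% of all genes were called higher and 10.7% lower. The median difference was 0.46, 37.6% more, against 0.11 for all genes, and 80 of 87 were above 0, against 8140 of 13627. The BG +/- and Ctx +/- arrays also differ in choroid plexus genes, 174 to 192 against 12135 to 13999 in summed signal, and in red blood cell genes, and their part in the result was not tested. The BG +/- arrays enter both this comparison and the genotype comparison in BG. By complex, 24 of 33 genes of complex I were higher, 1 of 4 of II, 3 of 8 of III, 7 of 16 of IV and 11 of 17 of V, and 0 of the 8 assembly factors. Arrays did not overlap and lay higher in BG +/- for 70 of the 87 genes, against 39.2% of all genes, and lower for 2, against 25.8%. The medians by complex were 0.51, 0.26, 0.42, 0.48 and 0.52 for I to V and 0.10 for the assembly factors. The count of 46 was lower without any single array. It fell most without either BG +/- array, where the share of all genes called higher was lowest too. Without single arrays the median difference ranged from 0.41 to 0.53. With each array centred on its median the count was 19, where 8.8% of all genes were called higher. The share of higher genes among all genes called then went from 56.7% to 40.7%. With only the arrays of these 2 groups the count was 11, where 6.01% of all genes were called higher.

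The genes furthest apart between the regions in +/- came from complexes I, IV and V. Cox6a2, the form of subunit 6a known from heart and muscle, was dim, at 85.6 and 108 (BG +/-), 110 and 74.9 (BG -/-), 32.9 and 21.9 (Ctx +/-) and 11 and 26.8 (Ctx -/-). All 4 BG arrays were above all 4 cortex arrays, and the genotypes overlapped within each region. The region difference was 1.38 ± 0.28 (limma adjusted p = 0.0148) in +/-. Ndufs8 differed by 1.28 ± 0.18 (adjusted p = 0.00424), from the signals given above. Ndufa5, a subunit of the quinone module, was at 2102 and 2066 (BG +/-), 1615 and 1548 (BG -/-), 1047 and 1104 (Ctx +/-) and 887 and 988 (Ctx -/-), so that each BG array was above each cortex array. It differed by 0.94 ± 0.12 (limma adjusted p = 0.00311). Cox7a1, the heart and muscle form of subunit 7a, was dim at 53.1 and 48.8 (BG +/-), 31.1 and 36.3 (BG -/-), 18.8 and 20.2 (Ctx +/-) and 11.8 and 19.2 (Ctx -/-). It too was higher in every BG array than in every cortex array, by 0.91 ± 0.15 in +/- (adjusted p = 0.0077). Atp5j2, a subunit of the membrane part of complex V, differed by 0.96 ± 0.23 (adjusted p = 0.0268), a value that was 0.59 without Ctx +/- replicate 2 and 1.33 without Ctx +/- replicate 3. Ndufa12 differed by 0.89 ± 0.12 (adjusted p = 0.00385).

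In the -/- animals the regions were closer. Of the 87 genes, 4 were higher in BG -/- than in Ctx -/- and 0 lower, where 11.4% of all genes were called higher and 7.25% lower, and the median difference was 0.17 against 0.06 for all genes. Arrays did not overlap and lay higher in BG -/- for 51 genes, against 40.1% of all genes, and lower for 9, against 30.9%. The sign of this median depends on the scaling: with each array centred on its median it was -0.11 against -0.22 for all genes, with 1 gene higher and 3 lower, and the share of higher genes among all genes called went from 61.2% to 26.9%. Cox6a2 was higher by 1.65 ± 0.28 (limma adjusted p = 0.0106), Ndufa5 by 0.75 ± 0.12 (adjusted p = 0.00894), Cox7a1 by 0.66 ± 0.15 (adjusted p = 0.0287) and Ndufb8, an accessory subunit of complex I, by 0.53 ± 0.13 (adjusted p = 0.0326). Ndufb8 was at 1313 and 1423 in BG -/- and 915 and 968 in Ctx -/-, and at 1733 and 1709 in BG +/- and 942 and 1080 in Ctx +/-, with no overlap between the regions. Ndufb8 and the 3 genes before it were also called higher in BG +/- than in Ctx +/-. The count of 4 fell most without BG -/- replicate 2, BG -/- replicate 3 or Ctx -/- replicate 2. The share of all genes called higher was also lowest there. Without single arrays the median difference ranged from 0.12 to 0.21. The count was 26 with the spread modelled as a function of the level, of which 24 were higher and 2 lower. With the spread so modelled, 15.3% of all genes were called higher and 12.7% lower. The complexes' medians were 0.22 for I, 0.02 for II, 0.14 for III, 0.14 for IV and 0.17 for V, and under median centring all 5 were below 0.

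**Figure D5:**
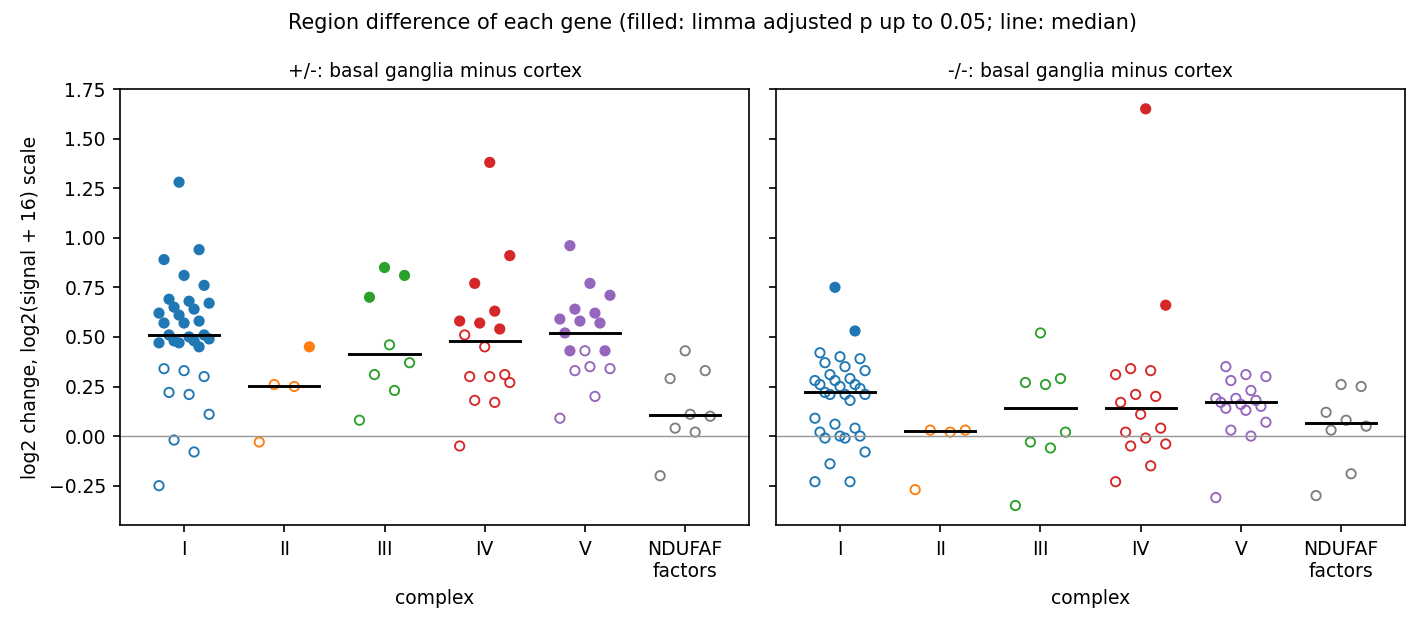
Log2 difference between the regions, basal ganglia minus cortex (log2(signal + 16) scale), for each gene by complex, in +/- and in -/-; filled points have a limma adjusted p up to 0.05, lines are medians, and Ndufa4l2 is not shown. In +/- 46 points are filled, all above 0, and in -/- 4, with Cox6a2 highest in both panels at 1.38 and 1.65.

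Complex IV has pairs of subunit forms of which one is widely expressed and another known mainly from muscle, lung or testis. The wide forms Cox4i1, Cox6a1, Cox6b1, Cox7a2 and Cox8a were bright and changed by -0.43, -0.34, -0.38, -0.52 and -0.34 in BG, of which only Cox7a2 passed (adjusted p = 0.0655, 0.125, 0.102, 0.0497 and 0.265 in that order). The other forms, Cox4i2, Cox6a2, Cox6b2, Cox7a1 and Cox8c, had group means of 15.5 to 101, where the array medians were 38 to 51.6, and Cox7b2 and Cox8b were below the filter. Levels of different probe sets cannot be ranked, so no share of a form is given. Cox6b2, known from testis, had 41.7 and 72.1 in BG +/- against 23 and 18.7 in BG -/-, a change of -0.95 ± 0.24 (limma adjusted p = 0.0557), and Cox4i2, known from lung, 36.7 and 37.7 against 17.9 and 19.2, -0.62 ± 0.33 (adjusted p = 0.268). The 5 muscle genes checked as another cell source summed to 224 to 251 in BG +/-, 196 to 220 in BG -/-, and 62.8 to 123 over the cortex arrays, in the same direction as the region difference of Cox6a2 and Cox7a1. Their part in that difference was not tested.

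The X-linked genes Ndufa1 and Ndufb11, both accessory subunits of complex I, were examined because sex runs with genotype. Ndufa1 had 4569 and 4515 in BG +/- and 3606 and 3514 in BG -/-, a change of -0.35 ± 0.12 (limma adjusted p = 0.124). Ndufb11 had 3896 and 4300 against 3341 and 3191, a change of -0.32 ± 0.13 (adjusted p = 0.173). Both lay near the median of complex I, -0.35. In cortex they were at -0.18 and -0.02 (adjusted p = 0.689 and 0.975).

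Of 77 other probe sets tested for 49 of these genes, 64 had the sign of the brightest probe set in BG and 13 did not. Past the threshold were 7 lower and 1 higher, where 3.05% of all genes tested were called lower and 4.76% higher. For 5 genes whose brightest probe set missed the threshold in BG, another passed in the same direction: Atp5h at -0.52 (adjusted p = 0.0351, against -0.49 and 0.0526 for the brightest), Atp5j2 at -0.56 (adjusted p = 0.0308), Atp5o at -0.69 (adjusted p = 0.0218), Ndufb5 at -0.65 (adjusted p = 0.0427) and Ndufv2 at -0.52 (adjusted p = 0.0365). The 1 called higher was of Ndufab1. This dim probe set, at 33.8 and 28.2 in BG +/- and 62.9 and 77.2 in BG -/-, rose by 0.87 ± 0.16 (limma adjusted p = 0.0227), while the bright one went from 1865 and 1794 to 1355 and 1388, -0.41 ± 0.13 (adjusted p = 0.104). Ndufab1 encodes the mitochondrial acyl carrier protein, and which of its transcripts the dim probe set reads is not given in the sources used here. Probe sets with several symbols were kept out of the set. Among them the one shared by Ndufb4, Ndufb4b and Ndufb4c had 2613 and 2584 in BG +/- and 1785 and 1781 in BG -/-, a change of -0.54 ± 0.12 (adjusted p = 0.0395), and the one shared by Ndufs6 and Ndufs6b had 1826 and 1617 against 1223 and 1123, -0.55 ± 0.13 (adjusted p = 0.0423). The signal of near-identical copies cannot be divided in either. In all, 47 of the 87 genes were represented by probe sets whose names end in _a_at, _s_at or _x_at. The _a_at mark concerns transcripts of the same gene, so 47 is not a count of cross-hybridising probe sets.

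Genes that build, supply or regulate the chain were read from lists that do not depend on the name rule, except that the 8 Ndufaf genes are also on the list of assembly factors. Over all genes tested, 3.05% fell and 4.76% rose in BG, 7.82% together, and 3670 of 13627 had an unadjusted p under 0.05 (limma). Of 42 assembly factors tested, 4 fell, 9.52%, and 0 rose: Bcs1l, which inserts the Rieske subunit into complex III, at -0.69 ± 0.13 (limma adjusted p = 0.026), the copper chaperone Cox17 at -0.53 (adjusted p = 0.0459), and Cox19 at -0.50 (adjusted p = 0.0424) and Coa6 at -0.64 (adjusted p = 0.0378), which act in the copper supply of complex IV. Their median was -0.18. Of 18 genes of mitochondrial protein import, 4 fell and 0 rose, with a median of -0.30: Timm17b at -0.66 (adjusted p = 0.0261), Timm8b at -0.61 (adjusted p = 0.0252), Tomm7 at -0.52 (adjusted p = 0.0396) and Timm8a1 at -0.50 (adjusted p = 0.0409). Of 15 citric acid cycle genes and 11 genes of cytochrome c and coenzyme Q, 0 passed (7 and 5 at an unadjusted p under 0.05, limma), with medians of -0.26 and -0.24. Of 16 glycolytic genes, 1 fell, 6.25%, the lactate dehydrogenase gene Ldha, at -0.57 (adjusted p = 0.038), with a median of -0.31. Glycolysis runs in the cytosol and apart from the chain. Of its 16 changes 14 were below 0, against 82 of 87 for the chain and 7930 of 13627 for all genes.

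Among 17 regulators of mitochondrial biogenesis, 2 fell and 2 rose in BG, with a median of -0.09, where 3.05% of all genes fell and 4.76% rose. Polrmt, the mitochondrial RNA polymerase, had 292 and 271 (BG +/-), 181 and 166 (BG -/-), 255 and 240 (Ctx +/-) and 210 and 204 (Ctx -/-), and fell by 0.65 ± 0.12 in BG (limma adjusted p = 0.023). Tfam, which packs and transcribes mitochondrial DNA, had 635 and 620, 453 and 445, 492 and 472, and 424 and 423 in the same order, and fell by 0.47 ± 0.11 (adjusted p = 0.0443). For both, BG +/- was the highest group and no array of it overlapped another group. Esrrg, a nuclear receptor that binds promoters of respiratory chain genes, rose by 0.66 ± 0.15 (adjusted p = 0.0412), from 261 and 255 to 409 and 426. Mterf1a, a mitochondrial transcription termination factor, rose by 0.79 (adjusted p = 0.0414). Ppargc1a, the coactivator best known for driving these genes, was at 131 and 131 in BG +/- and 135 and 157 in BG -/-, a change of 0.14 ± 0.13 (adjusted p = 0.516). In cortex 0 of the genes on these 6 lists passed (limma), with 1 assembly factor, 1 gene of cytochrome c and coenzyme Q, 2 regulators and 1 glycolytic gene at an unadjusted p under 0.05.

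The promoters of the genes were searched for short sequences bound by factors known to act on this set. RefSeq (GRCm38.p6) start sites gave 79 windows of 250 bases before the start for 74 of the 90 genes, and 32851 windows for all genes. GCGCA and GCGC with 1 base of any kind between them, the core of the site of NRF1, stood in 16.5% of the 79 windows and in 3.74% of all windows. CCGGAA, the core read by GABPA and other ETS factors, stood in 27.8% and in 12%, AAGGTCA of the ERR receptors in 6.33% and in 4.08%, and AAGATGGC of YY1 in 1.27% and in 1.56%. Both strands were searched, and no motif contains another. A match is a description of the sequence and not a bound site. Among the 8 genes that fell in BG, Uqcrb had no window, and 3 of the others had a match: Atp5g2 for NRF1, and Uqcrh and Cox7a2 for CCGGAA. The windows of Atp5g2 (chr15:102671048-102671297, minus strand) and Uqcrh (chr4:116075071-116075320, minus strand) are shown because they hold a match close to the start, and that of Ndufs8 (chr19:3912775-3913024, minus strand) because its gene had the largest fall and the window has no match to these letters. Each runs 5′ to 3′ on the strand of the gene and ends at the last base before the start, with the match in capitals.
Atp5g2: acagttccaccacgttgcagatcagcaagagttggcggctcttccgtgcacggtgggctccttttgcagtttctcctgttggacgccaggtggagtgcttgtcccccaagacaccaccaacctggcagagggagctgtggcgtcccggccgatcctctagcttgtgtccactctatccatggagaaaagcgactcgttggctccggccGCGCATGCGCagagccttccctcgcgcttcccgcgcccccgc
Uqcrh: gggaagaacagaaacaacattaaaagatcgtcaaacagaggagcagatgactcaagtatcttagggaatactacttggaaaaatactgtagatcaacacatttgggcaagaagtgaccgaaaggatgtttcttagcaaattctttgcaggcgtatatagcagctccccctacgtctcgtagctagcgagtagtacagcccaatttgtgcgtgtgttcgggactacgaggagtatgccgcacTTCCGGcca
Ndufs8: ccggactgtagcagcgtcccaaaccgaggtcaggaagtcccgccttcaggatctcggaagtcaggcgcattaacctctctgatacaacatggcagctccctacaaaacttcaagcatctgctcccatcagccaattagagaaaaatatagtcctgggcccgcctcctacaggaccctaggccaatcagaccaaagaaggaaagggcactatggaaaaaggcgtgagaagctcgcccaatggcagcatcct
The match of Atp5g2 spans positions -42 to -33 from the start and that of Uqcrh positions -9 to -4, where it reads TTCCGG, the reverse complement. The match of Cox7a2 lies further up, at -172 to -167.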

How the data were processed

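The deposited values are linear intensity values, 1 per probe set, and per the values of the deposited table every array has the same mean, 150, once 2% of values are trimmed at each end. What software made them was not given in the sources used here. Control probe sets (64) were dropped. Of 45037 others, 34945 had 1 gene symbol in the platform annotation, 932 several and 9160 none. A gene was read from its single-symbol probe set with the highest mean, and its chromosome from its symbol in RefSeq's GRCm38.p6 table.

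Signals were taken as log2(signal + 16), which understates changes of dim genes, and the lowest 30% by mean were left out, which kept 31526 probe sets and 13627 genes. A model of the 4 group means over all 8 arrays was fitted with lmFit and eBayes of limma 3.58.1 in R 4.3.3 (4 residual and 2.76 prior degrees of freedom), with two-sided moderated tests and Benjamini-Hochberg adjustment over the probe sets kept, at a threshold of 0.05. The fit was tested on simulated data first. Tables and figures were made with Python 3.11.15.

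The genes and lists were chosen with earlier results of these data known. Named are Dlx1 and Dlx2, the genes past the threshold, up to 6 in each direction for the regions, the 2 with the smallest p per complex in BG and in Ctx, X-linked genes, paired isoforms, genes whose probe sets disagree, core subunits, and up to 4 called genes per list. Genes outside this rule (Uqcr10, Uqcr11, Uqcrq, Cox7c, the Ndufaf genes, Neurod6, Th, Pnmt, Xist, Eif2s3y Ppargc1a in BG, and Sdhaf2) were named after their values were seen. Alternatives were other offsets, filters, scalings, probe set choices and variance models, a replicate block, fewer groups, and each array left out.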

Additional observations from a re-analysis of the deposited data

Results flagged for a closer look

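The genotype changes of Dlx1 and Dlx2 passed the test of the difference between the regions, a call that most other settings did not keep. Dlx1 changed by -5.65 in BG and by -3.09 in Ctx, a difference of -2.56 (limma adjusted p = 0.0359). Dlx2 changed by -3.77 and by -1.50, a difference of -2.28 (adjusted p = 0.0267). The -/- arrays lay below the offset of 16 in both regions, at 1.74 to 15.5 for Dlx1 and at 6.69 to 12 for Dlx2, so these fitted sizes depend on the offset, while the +/- means were 1234 in BG against 138 in Ctx for Dlx1 and 323 against 55.3 for Dlx2. The call was kept under 6 of 17 other settings for Dlx1 and 5 of 16 for Dlx2, and was lost for both with an offset of 1 (adjusted p = 0.366 and 0.0796), with no filter (0.0773 and 0.065), with the replicate block (0.0872 and 0.077) and without any single array (limma adjusted p = 0.0565 to 0.169). The difference was below 0 under all these settings, from -2.90 to -1.64 for Dlx1 and from -2.57 to -1.70 for Dlx2. None of the 87 respiratory chain genes passed this test (limma). Of them, 20 had an unadjusted p under 0.05, as did 2087 of all 13627 genes tested.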

How the results depend on the processing

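Of 1620 values recomputed under other settings, 1249 stayed close to the reported value or on its side of the threshold. Of the values for single genes, 16 changed sign, as did 17 of 564 medians, which have no test. Same-numbered arrays showed no shared deviation: deviations from the group means correlated at -0.0262 to 0.0218 between them. Whether they came from the same animals or batch is not stated and cannot be read from these correlations. With the replicate block 4 genes passed in BG in place of 8, and 0 in Ctx and in the difference between regions, 38 for the regions in +/- and 4 in -/-. The number of genes past the threshold in BG was 54 with an intensity trend, 42 without the lowest 60%, 35 with an offset of 64, 16 with the mean of all probe sets, 4 with an offset of 1, 3 with quantile normalization, 1 with no filter, 1 with only the arrays compared, and 0 to 13 without single arrays. For the difference between regions it was 11 with the trend, 3 without the lowest 60% and 2 with an offset of 64. For the regions in +/- it was 19 with median centring, 11 with only the arrays compared and 15 to 38 without single arrays. For the regions in -/- it was 26 with the trend, 8 without the lowest 60%, 9 with the mean of probe sets, 10 with an offset of 64 and 0 to 5 without single arrays. The shares of all genes called moved too. In BG the share called lower went from 3.05% to 10.6%, 13.9%, 7.52%, 3.18%, 1.77%, 4.01%, 0.77% and 0.528%, in the order above. No share is given without single arrays. For the difference it became 2.16%, 1.51% and 0.536%. In +/- the share called higher was 8.8% with median centring and 6.01% with only the arrays compared. In -/- 14.9% were higher and 10.8% lower with an offset of 64, and 15.3% and 12.7% with the trend. The cause of these shifts was not tested.

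Complex medians are given from I to V, after the value of all genes in the set. With median centring they were -0.45, -0.45, -0.27, -0.50, -0.46 and -0.45 in BG. In Ctx the set was at 0.01, I at 0.00, II at 0.14, IV at -0.02 and V at 0.03. The difference between regions was at -0.45, -0.45, -0.40, -0.60, -0.46 and -0.55, the regions in +/- at 0.34, 0.39, 0.14, 0.29, 0.36 and 0.39, and in -/- at -0.11, -0.06, -0.26, -0.14, -0.14 and -0.12. With quantile normalization the set was at -0.21 in BG, I at -0.22, III at -0.31, IV at -0.15 and V at -0.18. The difference was at -0.14, -0.14, -0.18, -0.27, -0.09 and -0.12. In +/- the set was at 0.33, I at 0.43, III at 0.31, IV at 0.31 and V at 0.33, and in -/- II at 0.09 and V at 0.23. With the mean of all probe sets, II was at -0.25 and III at -0.31 in BG, II to V at -0.36, -0.24, -0.25 and -0.28 in the difference, II at 0.39 and V at 0.43 in +/-, and II at 0.09 in -/-. With plain probe sets III was at -0.26 in BG, V at -0.29 in the difference and at 0.43 in +/-, and in -/- the set was at 0.08, I at 0.11, III at 0.03 and IV at 0.08. Complex IV in +/- was at 0.38 without the lowest 60% or with no filter and at 0.37 with an offset of 64, and in the difference at -0.22 with that offset.

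Without single arrays, V ranged from -0.42 to -0.34 in BG. In Ctx the set ranged from -0.11 to 0.00, I from -0.12 to -0.00, II from -0.04 to 0.13, III from -0.14 to 0.07, IV from -0.14 to 0.02 and V from -0.10 to 0.03. In the difference the set ranged from -0.35 to -0.25, I from -0.37 to -0.26, II from -0.35 to -0.20, III from -0.55 to -0.31 and IV from -0.35 to -0.24. In +/- the set ranged from 0.41 to 0.53, I from 0.49 to 0.59, III from 0.31 to 0.59 and IV from 0.41 to 0.53, and in -/- the set from 0.12 to 0.21, I from 0.16 to 0.28, II from -0.04 to 0.06 and IV from 0.14 to 0.21.

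Of the named genes, some values changed sign, and the cause was not tested. With the mean of probe sets Ndufab1 was at 0.19 in BG, Cox8c at -0.09 in Ctx and at 0.58 for the regions in -/- (called higher, limma adjusted p = 0.0387), and Atp5c1 at -0.17 for the regions in +/-. With plain probe sets Atp5c1 was at -0.91 there, called lower (limma adjusted p = 0.0387) where its brightest probe set was called higher at 0.57 (adjusted p = 0.0157), and Atp5j2 at -0.01 in Ctx. With median centring Atp5o and Sdhd were at -0.12 and -0.27 for the regions in -/-, and with quantile normalization Cox6a1 was at -0.08 in +/-. Without single arrays, Atp5j2 in Ctx ranged from -0.14 to 0.59, Sdha from -0.06 to 0.21 and Uqcrc2 from -0.43 to 0.07, and for the regions in -/- Cox8c ranged from -0.36 to 0.26 and Sdhd from -0.06 to 0.10.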

Other observations

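Genes that serve the chain were also compared between BG +/- and Ctx +/-, where 14% of all genes tested were called higher in BG, 10.7% lower and 24.8% in either direction. Of 42 assembly factors, 9 were higher and 2 lower (limma adjusted p up to 0.05, median 0.24), 26.2% in all and near the share of all genes. Among them were Uqcc2, a complex III factor, higher by 0.85 (adjusted p = 0.00527), and Sdhaf2, which attaches the flavin to Sdha, lower, at -0.61 (adjusted p = 0.0219). Of 18 import genes 5 were higher and 1 lower (33.3% in all, median 0.27), the latter the chaperonin gene Hspd1 at -0.69 (adjusted p = 0.0126). Cycs, cytochrome c itself, was higher by 0.75 (adjusted p = 0.00646), with means of 5926 (BG +/-), 4359 (BG -/-), 3513 (Ctx +/-) and 3270 (Ctx -/-).

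Regulators of biogenesis differed between the regions in both directions. Esrrg was higher in BG by 2.37 in +/- (limma adjusted p = 3.76e-04) and by 3.30 in -/- (adjusted p = 1.60e-04), with means of 258, 418, 37.4 and 28.3 in the order BG +/-, BG -/-, Ctx +/- and Ctx -/-. Ppargc1a was higher by 0.62 (adjusted p = 0.0158) and 0.96 (adjusted p = 0.0044). Gabpa ran the other way in +/-, at 228 against 420, a difference of -0.83 (adjusted p = 0.00844). Of 16 glycolytic genes, 5 were higher and 1 lower in BG +/-, against 14% and 10.7% of all genes, and 1 was higher and 4 lower in BG -/-, against 11.4% and 7.25%. Aldoc, an aldolase of astrocytes and radial glia, was lower in BG in both, at -1.20 (adjusted p = 0.00339) and -1.28 (adjusted p = 0.00339).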
